A study of Mus musculus with 15 samples.

Results

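CT2A and GL261 are mouse glioma lines that were both induced with methylcholanthrene in C57BL/6 mice, and the tumors they formed in the brain were compared with each other here. The comparison held 6 of the 15 samples of the series, 3 CT2A tumors and 3 GL261 tumors, chosen by the tumor line in the sample labels, and covered every gene. Of the 46679 genes in the tables, 17481 passed the filter on low counts and were tested. C57BL/6 mice of 6 to 8 weeks received 100000 cells of either line in the right hemisphere, and tumors were excised after perfusion with PBS when the mice reached the humane endpoint, with 3 mice per group. Both lines had been transduced with a retroviral GFP and Firefly luciferase marker and sorted for GFP. CT2A is described as wild type for p53, and GL261 as mutant in p53. Each group is 1 established line, so a difference between the groups is a difference between 2 lines and their hosts' tissue. The time to the endpoint differed between lines. Naïve brain (3 mice) is given as background for the levels.

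Glioma lines differ in the state of the tumor cells themselves and in the host cells they draw in. Tumor cells can carry a mesenchymal or a glial progenitor program, and they lay down matrix. MHC class II molecules present antigen to CD4 T cells and are under the control of the transactivator CIITA, which interferon-γ induces together with families of large GTPases. RNA of whole tumor tissue mixes all these cells. In such bulk samples fewer cells of a type and less RNA per cell cannot be told apart.

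The total count was 7246421 to 8825088 in CT2A and 5380395 to 7244155 in GL261. Levels are given as CPM (counts scaled to a common library size, normalized by TMM), and 3 counts, the smallest level taken as measurable, corresponded to 0.364 to 0.622 CPM, which covers counting error only. The proliferation gene Mki67 was at 62.0 to 82.3 CPM in CT2A and 34.0 to 54.7 CPM in GL261, against 1.89 to 3.06 CPM in naïve brain. Genes of neurons and oligodendrocytes were still present. The 22 neuron genes summed to 385 to 1800 CPM in CT2A and 1490 to 3400 CPM in GL261, and the sum over neuron and oligodendrocyte genes was lower in CT2A by 1.58 on the log2 scale (pooled SD 0.86). CT2A replicate 1 and GL261 replicate 2 held the most neuronal RNA of their groups. The share of mitochondrial genes was 3.48% to 7.59% in CT2A and 4.33% to 11.3% in GL261. The labels name no sequencing batch.

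In edgeR's quasi-likelihood test, 1358 genes were differentially expressed (DE), that is, past 2-fold in either direction with an adjusted p (Benjamini-Hochberg) below 0.05, which is 7.77% of the genes tested. Of these, 726 (4.15% of the genes tested) were higher in CT2A and 632 (3.62%) were higher in GL261. At 4-fold or more the balance turned, with 360 DE genes higher in CT2A and 445 higher in GL261. The median log2 fold change (CT2A minus GL261) of all genes tested was −0.13. In 1356 of the 1358 DE genes the 3 CT2A and the 3 GL261 values did not overlap, as they also did not in 36.4% of all genes tested. A further 4432 genes differed by at least 2-fold in the fitted means without passing the test. The number of DE genes fell to between 599 and 1076 when 1 of the 6 libraries was left out, with the lowest number without CT2A replicate 3. It was 605 without GL261 replicate 1, 614 without CT2A replicate 2, 700 without GL261 replicate 3, 807 without GL261 replicate 2 and 2216 without 005 replicate 3, which shares the estimate of the spread. For single genes below, the call was kept in each of the 6 fits without 1 CT2A or GL261 library unless it is said otherwise or the number for its list is given. A p given for a fit without a library is the highest over these 6 fits, with the number of them that lost the call.

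**Figure D1:**
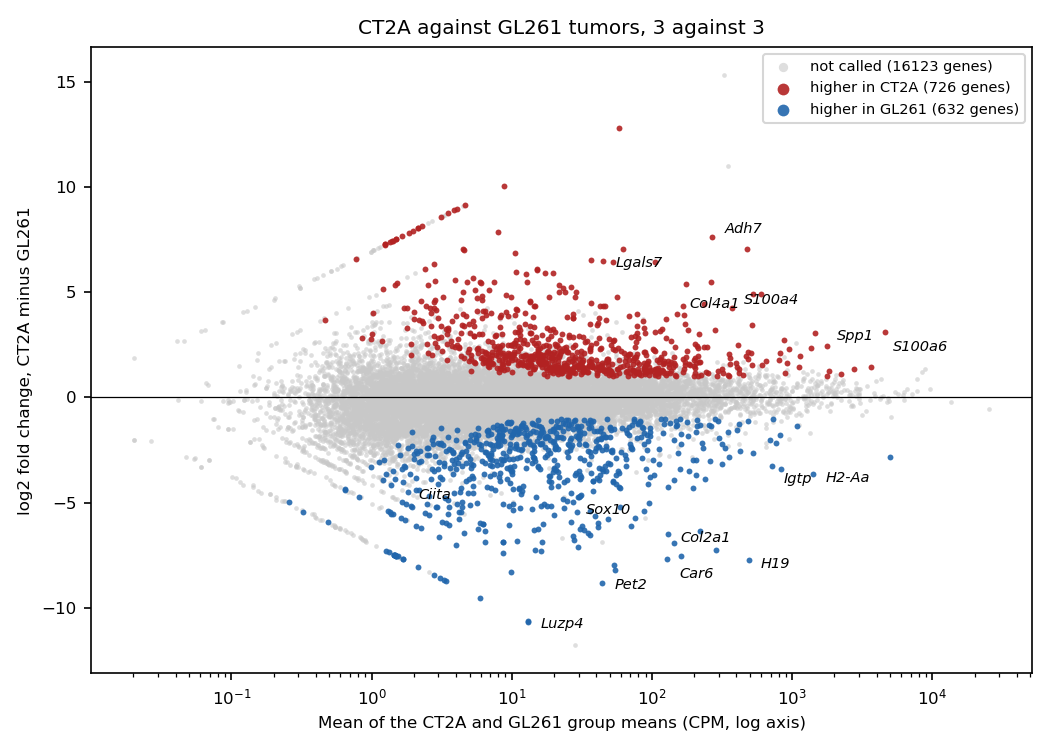
Log2 fold change (CT2A minus GL261) of each of the 17481 tested genes against its mean level in CPM (log axis), with DE genes higher in CT2A in red (726) and higher in GL261 in blue (632). Both colors reach from under 10 CPM to over 1000 CPM, and the genes beyond 4-fold are more often blue (445) than red (360).

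The largest differences were close to presence against absence. Adh7, an alcohol dehydrogenase that also oxidizes retinol (chromosome 3, 138217760 to 138233382, GRCm38), was at 438, 532 and 638 CPM in the CT2A tumors and at 2.69, 1.78 and 3.64 CPM in the GL261 tumors. Naïve brain held 3.22 CPM, so GL261 stood at the level of brain. The log2 fold change was 7.61 ± 0.56 (SE, adjusted p = 6.07e-06). Lgals7, which encodes galectin-7 (chromosome 7, 28863853 to 28866284), was at 72.9, 102 and 89.1 CPM in CT2A against 1.66, 0.647 and 0.728 CPM in GL261 (log2 fold change 6.47 ± 0.85, SE, adjusted p = 0.000475). Several of the other genes of this kind encode signals or their receptors.

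Inhba encodes the subunit of activin A, a ligand of the TGF-β family. It was at 71.6, 108 and 133 CPM in CT2A and at 0.207, 1.94 and 1.33 CPM in GL261 (log2 fold change 6.42 ± 0.82, SE, adjusted p = 0.000376). Sema3a, a secreted axon guidance cue, was at 145 to 284 CPM in CT2A against 0.622 to 3.40 CPM in GL261 (log2 fold change 6.43 ± 0.84, SE). Btc, the EGF receptor ligand betacellulin, was at 24.8 to 36.6 CPM against 0.323 to 0.622 CPM (6.09 ± 1.07, SE). Ptgfr, the receptor of prostaglandin F, was at 16.4 to 53.1 CPM against 0 to 0.849 CPM (6.05 ± 0.87, SE), and Tmem45a was at 68.6 to 179 CPM against 0.162 to 1.94 CPM (7.05 ± 1.21, SE). None of these overlapped between the groups, which was a condition of their choice. Naïve brain held between 0.512 CPM (Btc) and 17.0 CPM (Sema3a) of these 5 genes on average.

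Olfr805, annotated as an olfactory receptor, had 384 counts over the CT2A tumors and 0 over the GL261 tumors, which makes it at least 112-fold higher in CT2A (3 counts over the group as the floor). Pbp2 (181 counts against 0, at least 51-fold higher) and Pcdha5 (211 counts against 0, at least 59-fold higher) had the same pattern. The call of Pcdha5 was lost without any 1 of the 6 libraries (adjusted p up to 0.0925), and the genes of the protocadherin α cluster share their last exons, so its reads may be shared with its neighbors. Naa11 was at 7.10 to 10.2 CPM in CT2A with 1 count over the GL261 tumors, and Dynap was at 7.45 to 40.2 CPM with 3 counts over GL261, so no fold is given for these.

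**Figure D2:**
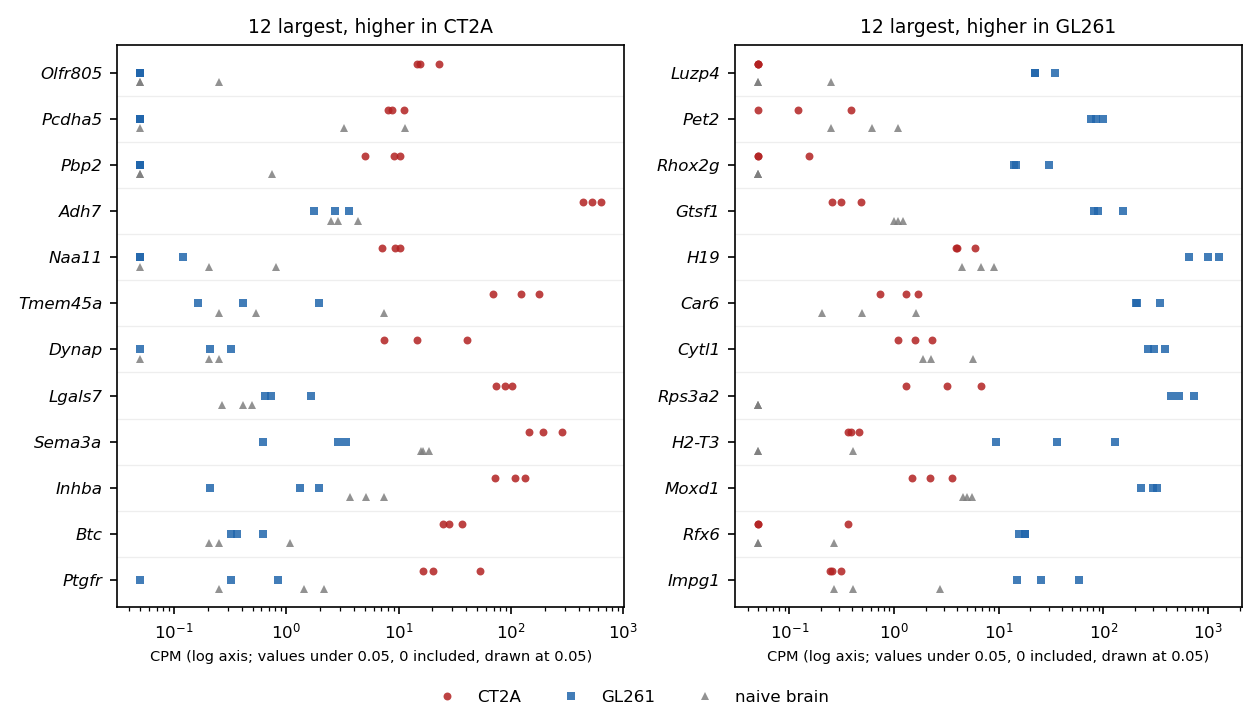
CPM of each CT2A, GL261 and naïve brain sample (log axis, 3 points a group) for the 12 DE genes with the largest fold change in each direction among those at 8 CPM or more in the higher group. The groups do not overlap in any of the 24 genes, which was a condition of their choice. H2-T3 has the widest spread within GL261, from 9.34 to 130 CPM.

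Among the 12 largest genes in the other direction, 3 lie on the X chromosome. Luzp4 had 0 counts over the CT2A tumors and 487 over the GL261 tumors (34.4, 22.3 and 22.2 CPM), at least 196-fold higher in GL261. Pet2 was at 85.8, 76.4 and 100 CPM in GL261 and at 0.122, 0 and 0.388 CPM in CT2A (log2 fold change −8.82 ± 0.74, SE, adjusted p = 1.05e-05). Rhox2g was at 14.1 to 30.1 CPM in GL261 with 1 count over the CT2A tumors. Naïve brain held at most 0.648 CPM of these 3 genes on average.

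The Rhox family and the Xlr family, also on the X chromosome, were then read whole, a choice made after their values were seen. Of 42 Rhox genes and pseudogenes, a family of reproductive homeobox factors, 4 were tested and 3 were higher in GL261 (3.62% of all genes tested were). These 3 averaged at most 0.537 CPM in CT2A and 0.346 CPM in naïve brain. Members low in every group were not tested, so the count is tied to the level in GL261 and is no separate result. Rhox4a2 lost its call in each of the 6 fits (adjusted p up to 0.0837). Rhox2h was at 70.9, 43.8 and 46.8 CPM in GL261 and at 0.733, 0.621 and 0.258 CPM in CT2A (−6.60 ± 0.82, SE, adjusted p = 0.00033). Of 15 Xlr genes and pseudogenes, 6 were tested and 4 were higher in GL261, a count with the same limit. Xlr3c was at 85.6, 48.6 and 53.7 CPM in GL261 and at 0.855, 0.931 and 0.904 CPM in CT2A (−6.10 ± 0.55, SE, adjusted p = 1.93e-05), and Xlr3b, Xlr3a and Xlr4b were 5.25, 5.35 and 3.30 lower in CT2A on the log2 scale (Xlr3a lost its call in 5 of the 6 fits, adjusted p = 0.0837 without CT2A replicate 2). Members of both families are near-identical copies, so the counts of single members are uncertain. Gtsf1, an autosomal gene of the piRNA pathway of germ cells, was at 154, 88.6 and 82.0 CPM in GL261 and at 0.258 to 0.488 CPM in CT2A (−8.18 ± 0.80, SE), and Dppa4, a gene of pluripotent cells, was at 23.1 to 40.0 CPM against 0.517 to 1.40 CPM (−5.15 ± 0.62, SE; fits without 1 library were not read for this gene).

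Over the whole X chromosome, 31 DE genes were higher in CT2A and 42 higher in GL261 of 622 tested. Xist, the RNA that silences 1 X chromosome in female cells, was at 319, 235 and 392 CPM in CT2A and at 6.84, 26.8 and 28.9 CPM in GL261 (log2 fold change 3.91 ± 0.77, SE, adjusted p = 0.00701). Naïve brain held 19.7 to 145 CPM, which lies below CT2A and reaches above GL261. The Y-linked gene Ddx3y was not tested, with 2 counts over the CT2A and 4 over the GL261 tumors.

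H19, an imprinted non-coding RNA of the Igf2 locus that is silenced after birth in most tissues (chromosome 7, 142575529 to 142578143), was higher in GL261. The 3 GL261 tumors held 990, 655 and 1270 CPM, and the 3 CT2A tumors held 4.03, 3.88 and 5.94 CPM, close to the 6.74 CPM of naïve brain (log2 fold change −7.71 ± 0.64, SE, adjusted p = 9.72e-06). Of 18 tested oncofetal and imprinted growth genes, 3 were higher in GL261 and 0 in CT2A in edgeR's test. Called genes made up 16.7% of the list, against 7.77% of all genes tested, and 9 had an unadjusted p under 0.05. DESeq2 called 4 and 3 of the 18, and a fit of the 6 samples alone 3 and 4. Plagl1, an imprinted zinc finger factor, was at 103, 133 and 208 CPM in GL261 against 1.29 to 4.04 CPM in CT2A (−5.70 ± 0.70, SE, adjusted p = 0.000305). Igf2 was at 9.95 to 22.3 CPM in GL261 against 0.904 to 3.79 CPM in CT2A (−2.90 ± 0.77, SE, adjusted p = 0.0318). Naïve brain held 11.2, 25.4 and 16 CPM of Igf2, which overlaps GL261. Its call was lost in 5 of the 6 fits (adjusted p = 0.136 without CT2A replicate 3). Hmga2, a fetal chromatin protein, was at 99.2, 157 and 100 CPM in CT2A and 24.7 to 39.5 CPM in GL261 without passing the test (1.94 ± 0.63, SE, adjusted p = 0.0744).

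The remaining large differences toward GL261 were in genes of varied function. Car6, a secreted carbonic anhydrase, was at 347, 209 and 203 CPM in GL261 and at 0.733 to 1.71 CPM in CT2A (−7.67 ± 0.69, SE), Cytl1 was at 264 to 384 CPM against 1.09 to 2.33 CPM (−7.55 ± 1.08, SE), and Moxd1, a copper-dependent monooxygenase, was at 228 to 328 CPM against 1.47 to 3.57 CPM (−6.89 ± 0.54, SE). Impg1, a proteoglycan of the retina, was at 14.8 to 58.0 CPM against 0.244 to 0.310 CPM. Rfx6, a transcription factor of the pancreas, was at 15.8 to 18.0 CPM with 3 counts over the CT2A tumors. Rps3a2, a copy of a ribosomal protein gene, was at 445 to 735 CPM in GL261 and 1.29 to 6.83 CPM in CT2A (−7.25 ± 1.07, SE); it resembles Rps3a1, so its reads may be shared. H2-T3, a non-classical MHC class I gene, was at 130, 36.4 and 9.34 CPM against 0.366 to 0.466 CPM (−7.12 ± 1.04, SE).

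The collagen genes that were DE split between the lines. Of 28 tested, 14 were DE, 8 higher in CT2A and 6 higher in GL261 (50% of the list, against 7.77% of all genes tested). The median log2 fold change was 0.66, against −0.13 for all genes, but it stood between 2 groups of collagens that moved in opposite directions. Among the collagens of basement membranes and of the pericellular matrix, Col4a1, Col4a2, Col6a1, Col6a2, Col6a3 and Col8a1 were higher in CT2A, as were the fibril regulators Col5a1 and Col5a2. Others of these kinds were not DE, with Col18a1 (1.45 ± 0.55, SE) and Col8a2 (0.54 ± 1.17, SE) fitted above 0 and Col4a5 (−1.36 ± 0.68, SE), Col15a1 (−1.10 ± 1.07, SE) and Col4a6 (−1.01 ± 1.04, SE) below. The cartilage collagens Col2a1, Col9a1, Col9a3, Col11a1 and Col11a2 were higher in GL261, as was Col12a1. The interstitial collagens Col1a1 (0.24 ± 0.65, SE) and Col3a1 (1.53 ± 0.62, SE, adjusted p = 0.15) were not DE. Of the 14 DE collagens, Col4a2, Col8a1 and Col12a1 lost their call in each of the 6 fits without 1 library (adjusted p up to 0.167, 0.122 and 0.167), Col6a3 in 4 (up to 0.0852) and Col5a1 in 2 (up to 0.0648). The number higher in CT2A was then 4 to 6 and that higher in GL261 was 5.

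Col4a1, a chain of the collagen of basement membranes, was at 226, 324 and 306 CPM in CT2A and at 16.8, 16.2 and 21.7 CPM in GL261 (3.97 ± 0.58, SE, adjusted p = 0.00108). Its partner Col4a2 differed less, with 19.1, 27.8 and 27.3 CPM against 7.05, 5.01 and 9.10 CPM (1.80 ± 0.53, SE, adjusted p = 0.0487). The 2 genes start 21 bases apart on opposite strands of chromosome 8 (GRCm38), so reads at their starts may be shared. Col6a1 was at 30.8 to 58.1 CPM against 1.04 to 5.10 CPM (3.82 ± 0.48, SE) and Col6a2 at 7.08 to 20.9 CPM against 0.485 to 1.45 CPM (3.90 ± 0.51, SE). Col6a3 had the widest spread, at 23, 14.7 and 68.7 CPM in CT2A (4.76 ± 1.15, SE, adjusted p = 0.0202).

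Col2a1, the main collagen of cartilage, was at 200, 189 and 377 CPM in GL261 and at 2.69, 2.33 and 3.62 CPM in CT2A, the level of naïve brain (3.53 CPM). The log2 fold change was −6.46 ± 0.45 (SE, adjusted p = 4.2e-06). Col9a1 was at 54.5, 60.3 and 61.4 CPM in GL261 against 2.02 to 2.58 CPM in CT2A (−4.68 ± 0.44, SE), and Col11a1 was at 148, 200 and 195 CPM against 21.5 to 24.4 CPM (−2.97 ± 0.51, SE). A list of 20 cartilage genes was read after these values were seen. It holds Cytl1 and the cartilage collagens named above, so its count is not a separate result. Of its 17 tested members, 10 were higher in GL261 and 1 in CT2A, against 3.62% and 4.15% of all genes tested. Among them were Col9a2 (−5.60 ± 0.60, SE), Cnmd, which encodes chondromodulin and was at 420 to 464 CPM against 3.91 to 6.52 CPM (−6.36 ± 0.57, SE), and Sox6, a factor of cartilage and of oligodendrocyte progenitors, at 153 to 188 CPM against 0.310 to 7.88 CPM (−5.41 ± 0.75, SE). Sox9, the master factor of cartilage, went the other way, at 59.6, 85.7 and 82.2 CPM in CT2A against 18.0, 26.5 and 19.2 CPM in GL261 (1.83 ± 0.48, SE, adjusted p = 0.0317, and up to 0.117 without GL261 replicate 1, lost in 5 of 6 fits). The proteoglycan Acan was at or near the floor, at most 0.728 CPM.

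**Figure D3:**
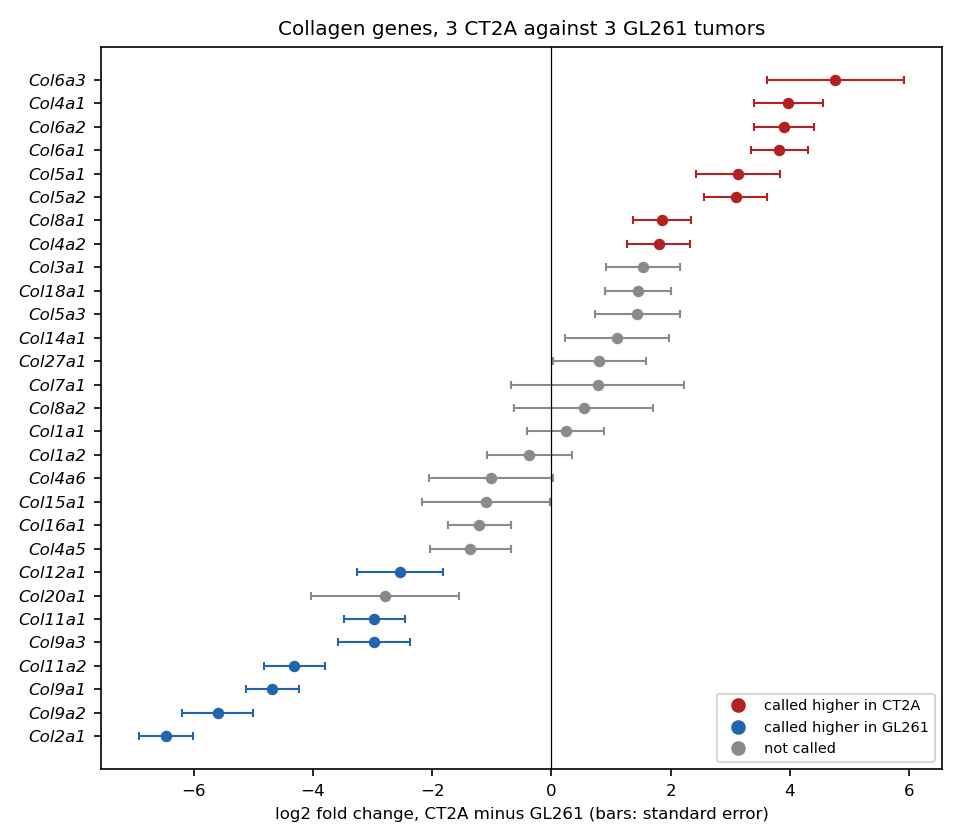
Log2 fold change (CT2A minus GL261, 3 against 3) with its standard error for the 28 tested genes of the collagen list and Col9a2, ordered by size. Red points (DE, higher in CT2A) run from Col4a2 at 1.80 to Col6a3 at 4.76, and blue points (DE, higher in GL261) from Col12a1 at −2.54 to Col2a1 at −6.46.

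Of 32 tested matrix proteins and cross-linkers, 6 were higher in CT2A, 1 was higher in GL261 and 25 were not DE. Called genes made up 21.9% of the list, against 7.77% of all genes tested. Fitted values lay above 0 for 18 and below 0 for 14 of the 32 (median log2 fold change 0.44). Without 1 library, 4 to 6 were higher in CT2A. Thbs1, a matrix protein that activates latent TGF-β, was at 174, 163 and 101 CPM in CT2A and at 6.22, 8.89 and 12.5 CPM in GL261 (3.98 ± 0.64, SE, adjusted p = 0.0021). Bgn, the proteoglycan biglycan, was at 214, 262 and 471 CPM against 12.4 to 38.1 CPM (3.49 ± 0.54, SE). Postn, periostin, was at 28.0, 62.9 and 133 CPM against 6.19 to 7.6 CPM (3.45 ± 0.63, SE), and Thbs2 was at 163 to 236 CPM against 14.7 to 28.6 CPM (3.15 ± 0.58, SE). Fn1, fibronectin, was not DE and leaned to GL261 (−0.90 ± 0.42, SE, adjusted p = 0.206). The matrix protease Mmp2 was higher in GL261, at 43.1, 17.9 and 39.1 CPM against 4.88 to 10.3 CPM (−2.25 ± 0.59, SE, adjusted p = 0.0296, and up to 0.12 without CT2A replicate 2, lost in 5 of 6 fits). Of host cells that make matrix, 11 meningeal fibroblast genes summed to 273 to 838 CPM in CT2A and 877 to 2590 CPM in GL261, and 15 pericyte and mural cell genes to 149 to 169 CPM and 237 to 337 CPM. Of the first list 1 of 11 and of the second 1 of 12 tested genes were higher in GL261, and 0 and 1 in CT2A. Most of the first sum came from Ptgds, at 761, 194 and 184 CPM in CT2A and 1210, 2520 and 800 CPM in GL261. Dcn, Slc6a13, Rgs5 and Acta2 were not DE, whereas Pdgfrb of the second list was higher in CT2A. The part of such cells in the matrix genes was not tested.

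The genes of the mesenchymal state were higher in CT2A where they were DE. Of 27 tested, 8 were higher in CT2A and 0 in GL261 (29.6% called, against 7.77% of all genes tested). The median log2 fold change was 0.46, and the number higher in CT2A was 3 to 6 without 1 library (3 without GL261 replicate 1). S100a4, a calcium-binding protein of motile and fibroblast-like cells (chromosome 3, 90603771 to 90606045), was at 552, 698 and 863 CPM in CT2A and at 33.8, 39.9 and 36.5 CPM in GL261 (4.26 ± 0.60, SE, adjusted p = 0.000865). Its neighbor S100a6 was at 5800, 9530 and 9230 CPM against 1290, 819 and 745 CPM (3.11 ± 0.62, SE, adjusted p = 0.00751). The transcription factor Snai2, a repressor of epithelial genes, was at 9.77, 9.94 and 5.17 CPM against 0.622, 0 and 0.364 CPM (4.64 ± 0.83, SE, adjusted p = 0.00415), where the GL261 values lie at or under the floor. Fosl1, an AP-1 subunit, was at 57.4, 90.4 and 80.5 CPM against 4.69 to 8.37 CPM (3.54 ± 0.78, SE, adjusted p = 0.0128, and 0.0629 without GL261 replicate 1, lost in 2 of 6 fits). Twist2, Twist1, Runx1 and Cd44 were also DE, but Cd44 and Twist1 lost their call in each of the 6 fits (adjusted p up to 0.154 and 0.139), Twist2 in 4 (up to 0.0606) and Runx1 in 3 (up to 0.0935). Vim was at 856 to 1100 CPM and 706 to 785 CPM, did not overlap and did not pass the test (0.37 ± 0.53, SE, adjusted p = 0.696).

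Signaling genes were DE in both directions. Of 25 tested receptor tyrosine kinases, 3 were higher in CT2A (Fgfr1, Epha2 and Pdgfrb) and 3 in GL261 (Erbb3, Kit and Ddr1). Called genes made up 24% of the list, against 7.77% of all genes tested. Pdgfrb lost its call in 5 of the 6 fits (adjusted p up to 0.172), Ddr1 in 6 (up to 0.137) and Kit in 3 (up to 0.0889). Fgfr1 was at 84.3, 92.4 and 81.9 CPM in CT2A against 8.29, 13.4 and 16.1 CPM in GL261 (2.77 ± 0.37, SE, adjusted p = 0.000535), and Epha2, an ephrin receptor, at 10.1 to 14.7 CPM against 0.829 to 3.64 CPM (2.62 ± 0.54, SE). Jag1, a Notch ligand, was at 68.1, 106 and 124 CPM against 14.7 to 24.9 CPM (2.23 ± 0.39, SE, adjusted p = 0.00379). Of 20 tested WNT genes, the secreted proteins Dkk2 (4.57 ± 0.79, SE) and Wnt5a (2.45 ± 0.53, SE) were higher in CT2A and Nkd2 was higher in GL261 (−2.75 ± 0.65, SE), the last with its call lost in 3 fits (adjusted p up to 0.0899). The WNT target Axin2 was not DE (−0.93 ± 0.88, SE). The angiogenic ligand Vegfd was at 9.78 to 12.7 CPM in CT2A and 0 to 1.04 CPM in GL261 (4.73 ± 1.13, SE, adjusted p = 0.0201, and 0.0906 without GL261 replicate 3, lost in 4 of 6 fits), while Vegfa, at 24.5 to 50.1 CPM against 15.2 to 17.4 CPM, was not DE (1.11 ± 0.41, SE, adjusted p = 0.118). Of 24 endothelial genes Pecam1 alone was DE (4.17%, against 7.77% of all genes tested). It was higher in GL261 (−1.02 ± 0.25, SE, adjusted p = 0.0236, and up to 0.0973 without CT2A replicate 2, lost in 5 of 6 fits).

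The prostaglandin pathway was read because Ptgfr was among the largest differences, and so after its values were seen. Of 11 tested genes, 3 were higher in CT2A and 0 in GL261, against 4.15% and 3.62% of all genes tested. The 3 include Ptgfr itself. Ptgs2, the inducible cyclooxygenase, was at 28.3, 60.1 and 64.5 CPM in CT2A and at 2.69, 2.42 and 5.70 CPM in GL261 (3.79 ± 0.60, SE, adjusted p = 0.00188). Ptges, the inducible synthase of prostaglandin E2, was at 13.2, 29.8 and 26.1 CPM against 1.66, 2.59 and 1.82 CPM (3.50 ± 0.62, SE, adjusted p = 0.00376). The constitutive enzymes Ptgs1 (−0.87 ± 0.47, SE) and Ptges3 (0.06 ± 0.27, SE) were not DE, and neither were the 3 tested receptors of prostaglandin E2.

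Of 7 tested genes of the aryl hydrocarbon receptor, the sensor of polycyclic hydrocarbons such as methylcholanthrene, 3 were higher in CT2A and 0 in GL261. Called genes made up 42.9% of this short list, against 7.77% of all genes tested. Aldh3a1, an aldehyde dehydrogenase, was at 39.8, 48.7 and 46.8 CPM in CT2A and at 0.622, 1.45 and 1.46 CPM in GL261, against 1.84 CPM in naïve brain (5.21 ± 0.41, SE, adjusted p = 8.16e-06). Nqo1, a quinone reductase, was at 18.4, 21.7 and 19.9 CPM against 5.01 to 7.25 CPM (1.75 ± 0.35, SE, adjusted p = 0.00757), and Tiparp was 1.81 ± 0.48 (SE) higher, with an adjusted p of 0.0315 that was lost in each of the 6 fits (0.0625 to 0.123). The receptor gene Ahr (1.08 ± 0.61, SE) and its target Cyp1b1 (−0.29 ± 0.48, SE) were not DE. Nqo1 was also the 1 DE gene of 15 targets of the oxidative stress factor NRF2. Of the 12 tested Hox genes 4 were higher in CT2A and 0 in GL261 in edgeR's test (33.3% called, against 7.77% of all genes tested). At an unadjusted p under 0.05, 7 passed, and DESeq2 called 5 and 1. Without 1 library, 2 or 3 were higher in CT2A, and Hoxc9 lost its call in each of these fits (adjusted p up to 0.15). Hoxa7 was at 21.6, 34.2 and 26.5 CPM against 2.28, 1.62 and 0.364 CPM (4.32 ± 0.93, SE, adjusted p = 0.011, and 0.0532 without GL261 replicate 3, lost in 1 of 6 fits). Hoxd10 and Hoxc11, the latter lost without 3 libraries (adjusted p up to 0.0563), were at 2.56 to 8.23 CPM in CT2A with 1 and 2 counts over the GL261 tumors.

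Some genes of the glial lineage were higher in GL261. Of 25 tested neural stem and glial progenitor genes, 5 were higher in GL261, 1 was higher in CT2A and 19 were not DE (24% called, against 7.77% of all genes tested, median log2 fold change −0.40). Sox10, the master factor of oligodendrocytes and Schwann cells (chromosome 15, 79154908 to 79165240), was at 59.3, 39.6 and 60.5 CPM in GL261 and at 1.71, 1.71 and 1.68 CPM in CT2A (−4.95 ± 0.69, SE, adjusted p = 0.000708). Naïve brain, at 4.60 to 15.2 CPM, lay between them. Olig2 was at 41.0, 35.4 and 32.3 CPM against 6.11, 2.17 and 2.20 CPM (−3.36 ± 0.51, SE, adjusted p = 0.00138) and Olig1 differed by −3.56 ± 0.71 (SE). Erbb3, a neuregulin receptor, was at 87.7, 44.4 and 111 CPM against 1.10, 1.24 and 1.55 CPM, and at 1.84 to 7.22 CPM in naïve brain (−5.95 ± 0.67, SE, adjusted p = 0.000163).

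Of 14 tested genes of oligodendrocyte progenitors and Schwann cells, a list chosen after these values were seen, 9 were higher in GL261 and 0 in CT2A. Over all genes tested the shares were 3.62% and 4.15%. The 9 include Sox10, Olig1, Olig2, Erbb3 and S100b, which are also reported from other lists, so the count is not a separate result. Ngfr, also among them, lost its call in 5 of the 6 fits (adjusted p up to 0.131). The list was not uniform. Gjc3 (−5.20 ± 0.78, SE), the cadherin gene Cdh19 (−4.91 ± 0.78, SE) and the receptor gene Gpr17 (−4.07 ± 0.61, SE) were higher in GL261, whereas Pdgfra, at 44.0 to 53.3 CPM in CT2A and 17.2 to 28.1 CPM in GL261, leaned the other way (1.17 ± 0.35, SE, adjusted p = 0.0534) and Cspg4 was not DE. The stem cell factor Sox2, at 50.1 to 87.7 CPM and 44.1 to 65.8 CPM, was not DE either (0.38 ± 0.40, SE). Mature oligodendrocyte genes summed to 348 to 1550 CPM in CT2A, 1440 to 2350 CPM in GL261 and 1970 to 4730 CPM in naïve brain, and 1 of 15 was DE. Astrocyte genes summed to 528 to 1090 CPM, 1780 to 2660 CPM and 3270 to 3510 CPM, and 1 of 15, S100b, was DE (adjusted p = 0.00974, and 0.0587 without CT2A replicate 3, lost in 2 of 6 fits). Sox10 and Erbb3 were above every naïve brain sample in every GL261 tumor, so their level in GL261 exceeded that of brain tissue.

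MHC class II genes were higher in GL261 almost throughout. Of 11 tested, 10 were higher in GL261 and 0 in CT2A (90.9% of the list, against 7.77% of all genes tested), and the median log2 fold change was −3.48. H2-Aa, an α chain of the presenting molecule (chromosome 17, 34282744 to 34287823), was at 4280, 1310 and 2220 CPM in GL261 and at 140, 254 and 240 CPM in CT2A, against 37.7 to 47.8 CPM in naïve brain (−3.62 ± 0.80, SE, adjusted p = 0.0127). Ciita, the transactivator of these genes, was at 10.4, 6.79 and 11 CPM in GL261, at 0.366, 0 and 0.775 CPM in CT2A and at 0 CPM in naïve brain (−4.53 ± 1.09, SE, adjusted p = 0.0248). Cd74, the invariant chain, was at 267, 85.0 and 144 CPM against 9.40, 20.6 and 17.3 CPM (−3.39 ± 0.74, SE), and H2-DMa, which loads peptides, was at 595, 226 and 335 CPM against 25.9, 24.4 and 39.1 CPM (−3.69 ± 0.66, SE, adjusted p = 0.00409). GL261 replicate 1 was the highest and replicate 2 the lowest tumor of its group in H2-Aa, Cd74 and H2-DMa. H2-Ob, which modulates peptide loading, was not DE (−1.83 ± 0.91, SE, adjusted p = 0.235). Without 1 library the number of DE genes of the list was 4 to 10 of the 10, with 4 without CT2A replicate 3, 5 without CT2A replicate 2 or GL261 replicate 1 and 6 without CT2A replicate 1. The adjusted p of Ciita was then up to 0.0865 and that of H2-Aa up to 0.0582, with log2 fold changes of −4.03 and −3.09 or beyond.

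The promoters of MHC class II genes share a short module whose last element is the Y box, the site of the factor NF-Y. RefSeq windows of 250 bases before to 50 bases after the start site (GRCm38.p6) were held for 8 of the 11 genes. All 8 had the Y box core GATTGG on the strand of the gene, against 8.71% of the 32851 windows of all genes (16.1% on either strand). The stretches below end before the start site and have the Y box in capitals. H2-Ob, the gene that was not DE, carries it as well.
H2-Aa: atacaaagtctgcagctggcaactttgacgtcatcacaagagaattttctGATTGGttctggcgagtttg
H2-Eb1: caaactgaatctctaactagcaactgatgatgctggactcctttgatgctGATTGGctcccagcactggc
H2-Eb2: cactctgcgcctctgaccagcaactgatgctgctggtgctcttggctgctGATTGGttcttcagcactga
H2-DMb1: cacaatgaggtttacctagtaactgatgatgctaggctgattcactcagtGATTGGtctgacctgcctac
H2-Oa: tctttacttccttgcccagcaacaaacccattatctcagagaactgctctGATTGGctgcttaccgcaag
H2-Ob: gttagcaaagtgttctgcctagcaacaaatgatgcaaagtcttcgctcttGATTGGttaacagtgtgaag

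On chromosome 17 these stretches lie at chr17:34287853-34287922 (H2-Aa, minus strand), chr17:34305757-34305826 (H2-Eb1, plus), chr17:34325524-34325593 (H2-Eb2, plus), chr17:34153079-34153148 (H2-DMb1, plus), chr17:34092285-34092354 (H2-Oa, plus) and chr17:34238797-34238866 (H2-Ob, plus). The Y box begins 49 bases before the start site in H2-Aa, 60 in H2-Eb1, 101 in H2-Eb2, 62 in H2-DMb1, 44 in H2-Oa and 58 in H2-Ob.

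The interferon-γ induced GTPases, which attack the vacuoles of intracellular microbes, pointed the same way with a wider spread. All 19 tested had a lower fitted level in CT2A. In 18 of them every GL261 tumor lay above every CT2A tumor, as in 3316 of all 17481 genes tested. DE calls were made for 7, 36.8% of the list, against 7.77% of all genes tested. The median log2 fold change of the 19 was −2.36. Igtp was at 1930, 869 and 1080 CPM in GL261 and at 98.8, 164 and 140 CPM in CT2A (−3.27 ± 0.75, SE, adjusted p = 0.0154), Irgm1 at 1780, 860 and 1080 CPM against 238, 317 and 288 CPM (−2.14 ± 0.53, SE, adjusted p = 0.0243), and Gbp5 at 115, 49.9 and 76.2 CPM against 6.84, 9 and 6.59 CPM (−3.42 ± 0.84, SE, adjusted p = 0.0228). In these 3 genes GL261 replicate 1 was the highest of its group and replicate 2 the lowest. Gbp10, Gbp2b, Irgm2 and Ifi47 were the other DE genes, and Gbp2 (−2.16 ± 0.77, SE, adjusted p = 0.104) and Iigp1 (−2.32 ± 0.70, SE, adjusted p = 0.055) did not pass. The number of DE genes turned on single libraries. It was 0 without CT2A replicate 1, 2 or 3 or GL261 replicate 1, 1 without GL261 replicate 3, 6 without GL261 replicate 2 and 12 without 005 replicate 3. Many of these genes are close copies, and Igtp overlaps Irgm2 on the same strand of chromosome 11, so reads may be shared.

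**Figure D4:**
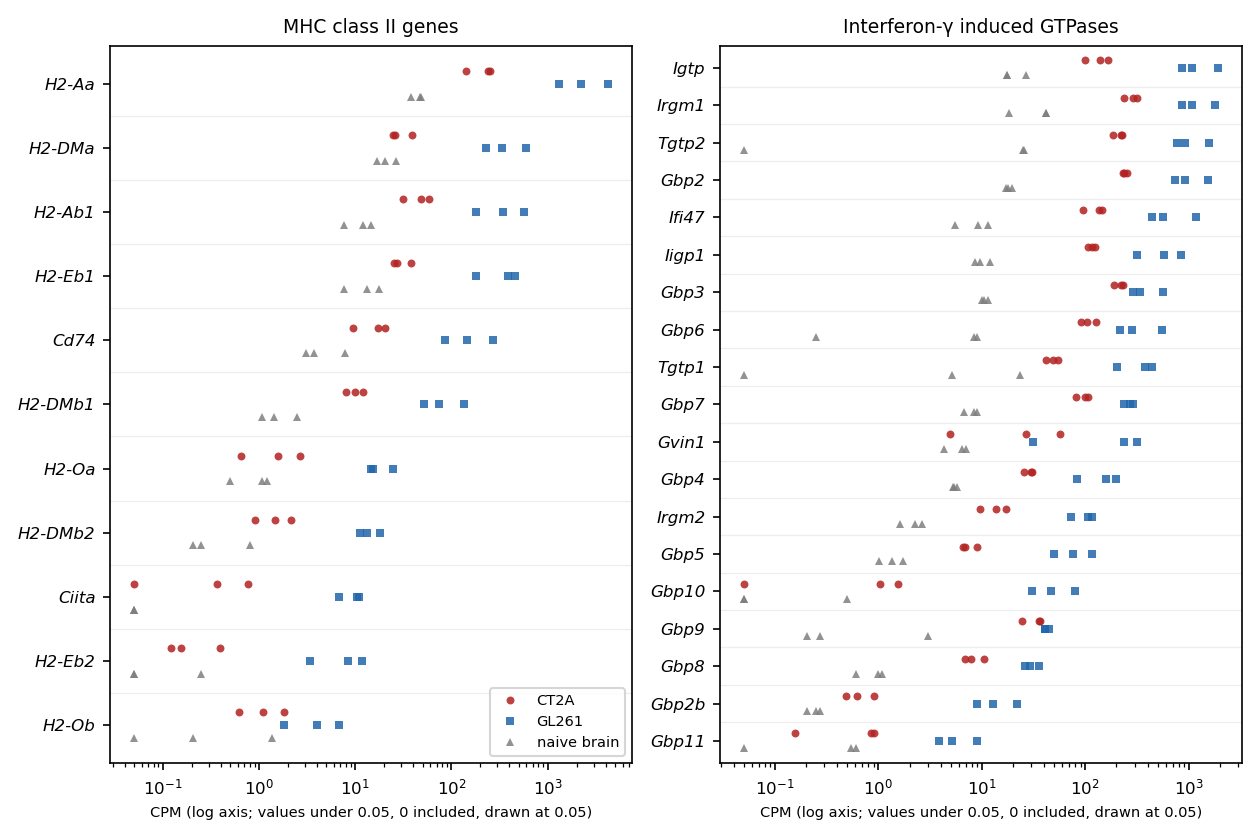
CPM of each CT2A, GL261 and naïve brain sample (log axis) for the 11 MHC class II genes (left) and the 19 interferon-γ induced GTPases (right), ordered by the mean of GL261. In both panels GL261 lies highest and naïve brain mostly lowest; H2-Ob and Gbp9 show the smallest gaps between CT2A and GL261, and Gvin1, from 4.97 to 56.8 CPM in CT2A and from 31.0 to 318 CPM in GL261, overlaps.

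Interferon-γ acts at GAS sites, and interferon regulatory factors act at ISRE sites. Windows were held for 11 of the 19 GTPase genes. GAS (TTCNNNGAA, its own reverse complement) was in 6 of them and the ISRE core (GAAA, any 2 bases, GAAA) on either strand in 10, against 8.30% and 3.44% of all windows. In 4 genes a GAS was followed on the strand of the gene by an ISRE that begins 11 bases after the first base of the GAS, a spacing noticed in these sequences and found in 5 of the 32851 windows. The fifth was that of the predicted gene Gm12185. This gene was higher in GL261 (−3.38 ± 0.81, SE, adjusted p = 0.0203), and fits without 1 library were not read for it. The stretches printed below resemble each other and many GTPase genes are close copies, so the 5 windows may not be independent. The stretches show this shared module, with the GAS and the ISRE in capitals.
Igtp: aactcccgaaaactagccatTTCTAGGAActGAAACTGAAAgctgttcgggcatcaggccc
Irgm2: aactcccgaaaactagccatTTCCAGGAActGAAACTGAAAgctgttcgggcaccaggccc
Tgtp1: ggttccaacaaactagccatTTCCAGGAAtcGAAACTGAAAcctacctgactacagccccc
Tgtp2: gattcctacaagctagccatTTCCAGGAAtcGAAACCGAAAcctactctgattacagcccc

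They lie at chr11:58199491-58199551 (Igtp, plus strand), chr11:58214882-58214942 (Irgm2, plus), chr11:48992294-48992354 (Tgtp1, minus) and chr11:49064253-49064313 (Tgtp2, minus), GRCm38.p6. The GAS begins 45, 75, 88 and 81 bases before the start site in this order. All 4 genes were lower in CT2A in the fitted means, Igtp and Irgm2 (−2.86 ± 0.74, SE, adjusted p = 0.0282) with a DE call and Tgtp1 (−2.82 ± 1.12, SE, adjusted p = 0.139) and Tgtp2 (−2.36 ± 1.12, SE, adjusted p = 0.214) without.

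Of 30 tested type I interferon-stimulated genes, 2 (Oas3 and Stat2) were higher in GL261 and 1 (Oasl1) in CT2A. Called genes made up 10% of the list, near the 7.77% of all genes tested. The 30 genes had a median log2 fold change of −0.15, close to the −0.13 of all genes. Their summed level was 1790, 2610 and 2730 CPM in CT2A and 5310, 3200 and 3400 CPM in GL261, without overlap, and DESeq2 called 6 of them higher in GL261. In edgeR's test the calls of these 3 were lost without 5 or 6 of the 6 libraries (adjusted p up to 0.161). Ifit1 was at 167, 243 and 286 CPM in CT2A and 174, 106 and 105 CPM in GL261 (0.85 ± 0.48, SE, adjusted p = 0.296), and Isg15 at 10.7 to 13.8 CPM and 9.86 to 14.5 CPM (−0.09 ± 0.60, SE). Ifng itself was at 0.310 to 0.977 CPM in CT2A and 0.162 to 3.11 CPM in GL261, near the floor and overlapping. Irf1, a first target of interferon-γ, was at 249, 102 and 177 CPM in GL261 and 34.6, 38.3 and 65.5 CPM in CT2A without passing (−1.93 ± 0.59, SE, adjusted p = 0.0574). Irf8, a factor of myeloid cells, was DE (−2.20 ± 0.63, SE, adjusted p = 0.0443), but not in any of the fits without 1 library (adjusted p up to 0.143). Of 21 MHC class I and peptide loading genes, 3 were higher in GL261 and 2 in CT2A (23.8% called, against 7.77% of all genes tested). The proteasome activator genes Psme1 (−1.79 ± 0.46, SE, adjusted p = 0.0281) and Psme2 (−1.77 ± 0.51, SE, adjusted p = 0.0444), both on chromosome 14, and Psmb10 were higher in GL261, whereas H2-Q6 (2.32 ± 0.50, SE, adjusted p = 0.0106) and H2-Q7 (2.07 ± 0.50, SE, adjusted p = 0.02), which are near-identical copies, were higher in CT2A. The calls of the 3 GL261 genes were lost without 5 or 6 of the 6 libraries (adjusted p up to 0.158), that of H2-Q7 without 5 (up to 0.0834) and that of H2-Q6 without 1 (0.0535 without GL261 replicate 2). The classical molecules H2-K1 (−0.27 ± 0.53, SE), H2-D1 (0.10 ± 0.50, SE) and B2m (0.41 ± 0.54, SE) were not DE.

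The markers of leukocytes were read beside the class II genes, since these are made by antigen-presenting cells. Of the lists, 1 of 23 tested monocyte and macrophage genes (Cd14), 1 of 18 microglia genes (Sall3), 1 of 15 dendritic cell genes (Ccl17), 0 of 9 B cell genes, 0 of 21 T cell genes and 1 of 15 cytotoxic T and NK cell genes (Gzma) were higher in GL261, and none of these lists had a gene higher in CT2A. These are counts of edgeR's test, in which 3.62% of all genes tested were higher in GL261. The lists with 1 such gene had 4.35% to 6.67% of their genes called, near the share over all genes. At an unadjusted p under 0.05, 9 of the 18 microglia genes, 6 T cell genes and 2 B cell genes passed. In 11 of the 18 microglia genes every GL261 tumor lay above every CT2A tumor, as in 3316 of all 17481 genes tested. DESeq2 called 3 microglia genes, 1 T cell gene and 0 B cell genes, and a fit of the 6 samples alone called 3, 5 and 2. The call of Ccl17 was lost without 5 of the 6 libraries (adjusted p up to 0.0922). The monocyte and macrophage genes summed to 1220 to 1680 CPM in CT2A and 1570 to 3270 CPM in GL261, and overlapped. The dendritic cell genes summed to 16.7 to 30.0 CPM and 30.5 to 55.7 CPM, and the microglia genes to 243 to 311 CPM and 439 to 576 CPM. T cell genes summed to 78.0 to 128 CPM and 161 to 248 CPM, and B cell and plasma cell genes to 103 to 192 CPM and 204 to 936 CPM. These 4 sums were higher in every GL261 tumor than in every CT2A tumor. The defining genes Tmem119 (−0.13 ± 0.54, SE), P2ry12 (−1.26 ± 0.55, SE), Cd8a (−1.02 ± 0.66, SE) and Xcr1 (−1.63 ± 1.07, SE) were not DE, and Cd3e and Cd79a were not tested, at 0 to 1.09 CPM. The part of such cells in the MHC class II and GTPase differences was not tested.

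Single leukocyte genes were DE beyond their lists. Gzma, a protease of cytotoxic cells, was at 202, 52.2 and 98.7 CPM in GL261 and at 13.9, 12.6 and 10.6 CPM in CT2A (−3.25 ± 0.84, SE, adjusted p = 0.0281, and up to 0.114 without CT2A replicate 3, lost in 5 of 6 fits), while its relative Gzmb, at 31.2 to 132 CPM in GL261 and 45.6 to 64.5 CPM in CT2A, overlapped. Cd14, the coreceptor for endotoxin, was at 401, 205 and 190 CPM against 52.8, 74.8 and 46.2 CPM (−2.19 ± 0.46, SE, adjusted p = 0.00988, and up to 0.0606 without CT2A replicate 3, lost in 2 of 6 fits). Of 21 lipid-associated macrophage and activated microglia genes, 3 were higher in GL261 and 2 in CT2A (Spp1 and Ctsl). Called genes made up 23.8% of the list, against 7.77% of all genes tested. Without any 1 of the 6 libraries the numbers were 1 or 2 in GL261 and 0 in CT2A, and with the replicate block 2 and 0. Gpnmb was at 307, 259 and 301 CPM in GL261 against 24.4 to 29.4 CPM (−3.39 ± 0.38, SE, adjusted p = 0.000163), while Spp1, osteopontin, was at 2430, 3010 and 3520 CPM in CT2A against 412 to 743 CPM (2.45 ± 0.67, SE, adjusted p = 0.0382, and up to 0.136 without GL261 replicate 1, lost in 6 of 6 fits). Of 34 chemokines and receptors, 2 were higher in CT2A (Cxcr2 and Cxcr4) and 1 in GL261 (8.82% called, near the 7.77% of all genes tested). Cxcr2 and Cxcr4 each lost their call in 5 of the 6 fits (adjusted p up to 0.114 and 0.221). Ccl2, Ccl5, Cxcl9 and Cxcl10 were not DE. Of 21 tested checkpoint genes 0 were DE in edgeR's test, 4 had an unadjusted p under 0.05 and 1 was called by DESeq2, higher in GL261. Cd274, the PD-L1 gene, lay without overlap at 28.6 to 72.7 CPM in GL261 and 12.2 to 21.4 CPM in CT2A (−1.49 ± 0.67, SE, adjusted p = 0.19).

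The 16 tested complement genes had a median log2 fold change of −1.01. Of them, 0 were higher in CT2A and 5 higher in GL261 (31.2% called, against 7.77% of all genes tested). They were the first components C1s1 (−4.0 ± 0.79, SE, adjusted p = 0.00684) and C1ra, C2 (−3.90 ± 0.48, SE, adjusted p = 0.000318), C4b (−2.88 ± 0.40, SE, adjusted p = 0.000759) and the inhibitor Serping1. C2 was at 126, 41.9 and 66.2 CPM in GL261 and at 6.72, 6.21 and 2.71 CPM in CT2A. C4b was at 171, 102 and 178 CPM against 29.6, 15.1 and 16.7 CPM. Serping1 lost its call in each of the 6 fits (adjusted p up to 0.12) and C1ra in 5 (up to 0.136). C1qa, a product of microglia and macrophages, was at 21 to 34.6 CPM in GL261 and 9.53 to 16.7 CPM in CT2A without passing (−1.04 ± 0.51, SE, adjusted p = 0.235), and C3 was not DE.

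Trp53, the p53 gene, was not DE. It was at 53.4, 65.0 and 67.3 CPM in CT2A and 47.3, 26.0 and 34.5 CPM in GL261 (0.79 ± 0.32, SE, adjusted p = 0.154). Its values did not overlap between the lines. A level of RNA does not show a mutation. Of 25 tested p53 targets, 1 was DE (4%, against 7.77% of all genes tested). Fitted values lay below 0 for 17 of them and above 0 for 8. The median log2 fold change was −0.46, against −0.13 for all genes. The DE gene, Eda2r, was at 16.7, 14.1 and 6.33 CPM in CT2A and 0.622 to 0.970 CPM in GL261 (3.91 ± 0.81, SE, adjusted p = 0.00904, and 0.0512 without GL261 replicate 1, lost in 1 of 6 fits). Cdkn1a (−0.52 ± 0.68, SE) and Mdm2 (−0.47 ± 0.30, SE) were not DE. The RAS-ERK feedback genes were 3 of 18 higher in CT2A (Fosl1, Epha2 and Dusp4, whose call was lost in 4 of 6 fits, adjusted p up to 0.0937) and 1 in GL261. Called genes made up 22.2% of the list, against 7.77% of all genes tested. The anchors Dusp6 (−0.84 ± 0.40, SE) and Spry4 (1.65 ± 0.58, SE, adjusted p = 0.0992) leaned in opposite directions.

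Inhibitors of the cyclin-dependent kinases of the G1 phase differed in opposite directions. Cdkn2c was at 108, 154 and 173 CPM in CT2A and 39.6, 31.8 and 26.7 CPM in GL261 (2.15 ± 0.41, SE, adjusted p = 0.00589). Cdkn2b was at 1.34, 0.310 and 0.388 CPM in CT2A and 11.6, 10.7 and 7.52 CPM in GL261 (−3.81 ± 0.79, SE, adjusted p = 0.00921, and 0.0582 without CT2A replicate 3, lost in 2 of 6 fits). Cdkn2a, which adjoins Cdkn2b, was at 6.47 to 12.7 CPM and 4.85 to 12 CPM (−0.02 ± 0.57, SE). Of 25 mitosis genes 0 were DE in edgeR's test, 5 had an unadjusted p under 0.05 and 1 was called by DESeq2, higher in CT2A, with a median log2 fold change of 0.60. Of the DNA replication genes, Pola1, a subunit of DNA polymerase α, was higher in CT2A (1.39 ± 0.28, SE, adjusted p = 0.00796, and 0.0553 without GL261 replicate 1, lost in 1 of 6 fits). The replication genes had a median log2 fold change of 0.64, against −0.13 over all genes.

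The differences were unevenly spread over the chromosomes, a pattern read after the values were seen. On chromosome 3, 102 of 996 tested genes were higher in CT2A (10.2%, against 4.15% of all genes) and 17 higher in GL261, and on chromosome 19, 51 of 542 (9.41%) and 11. Chromosome 13 had 41 and 9 of 605. Chromosome 14 was the reverse, with 57 of 572 higher in GL261 (9.97%, against 3.62% of all genes) and 11 higher in CT2A. The median log2 fold change was 0.28 on chromosome 3, 0.30 on chromosome 19 and −0.70 on chromosome 14, against −0.13 over all genes, and 0.50, 0.45 and −0.69 among genes with a mean of at least 8 CPM. The size of these shifts depended on the processing. With limma on log2(TPM + 1) the medians were 0.02, 0.04 and −0.26, and with no filter on low counts 0, 0.15 and −0.38. Without 1 library, the DE genes higher in CT2A were 28 to 78 on chromosome 3 (28 without GL261 replicate 1) and 13 to 42 on chromosome 19 (13 without GL261 replicate 1), and those higher in GL261 were 16 to 34 on chromosome 14 (16 without CT2A replicate 2). The shifts ran along the chromosomes: 14 of 15 bins of 10 Mb with at least 20 genes lay above the median of all genes on chromosome 3, 6 of 6 on chromosome 19 and 0 of 10 on chromosome 14.

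Within each line the 3 tumors deviated in the same direction on chromosomes 3, 19 and 14. The median deviation from the mean of the 4 tumor lines was 0.17, 0.11 and 0.17 on chromosome 3 in the CT2A tumors and −0.13, −0.15 and −0.08 in the GL261 tumors. On chromosome 19 it was 0.27, 0.18 and 0.33 against −0.11, −0.03 and −0.02, so GL261 replicates 2 and 3 lay close to the mean of the lines. On chromosome 14 the median deviation was −0.22, −0.50 and −0.51 against 0.30, 0.25 and 0.26. The least shifted CT2A tumor was replicate 1 on chromosome 14 and replicate 2 on chromosomes 3 and 19. Replicate 1 held the most neuronal RNA of the CT2A tumors, and the part of brain tissue in the shifts was not tested. Adh7, Ptgfr, S100a4, S100a6, Dkk2 and Postn, all higher in CT2A, lie on chromosome 3, and Psme1, Psme2 and Rps3a2, all higher in GL261, on chromosome 14. Their differences were of 1.77 or more on the log2 scale. A DE call required at least 1, so an excess over the median shift of the chromosome followed from their choice. The part of the shift in these genes was not tested.

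**Figure D5:**
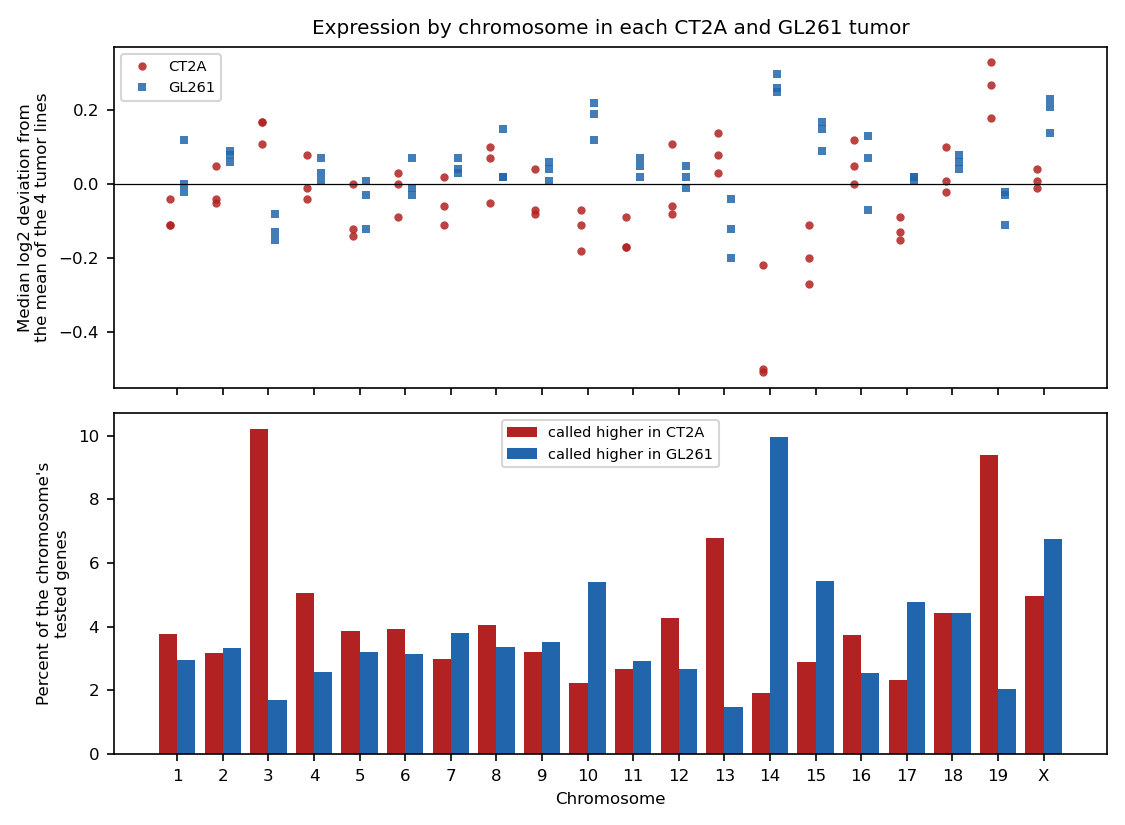
Top, median log2 deviation of each chromosome's tested genes from the mean of the 4 tumor lines in each CT2A and GL261 tumor; bottom, percent of each chromosome's tested genes that were DE in either direction. Chromosomes 3 and 19 hold the most DE genes higher in CT2A (10.2% and 9.41%) and chromosome 14 the most higher in GL261 (9.97%), with no overlap between the tumors of the 2 lines on these 3 chromosomes.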

How the data were processed

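Bulk RNA of excised tumors and naïve brain was sequenced in 15 samples of 5 groups, 3 each. The authors deposited expected counts and TPM per gene, estimated per library. The submitters' processing notes name Salmon, DESeq2 1.18.1 and mm10, and the study's methods name STAR with a GENCODE mouse genome; which made which column is not given in the sources used here. The deposited expected counts were rounded to whole numbers. In edgeR 4.0.16 (R 4.3.3), genes were filtered with filterByExpr, normalized by TMM and tested with the quasi-likelihood test for CT2A minus GL261 in a fit of all 15 samples, which shares 1 estimate of the spread. DE genes had an adjusted p below 0.05 and differed by 1 or more on the log2 scale. The test was also run on simulated counts, and the outcome of that run is not given here.

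Named genes were the 12 largest per direction (at least 8 CPM in the higher group, no overlap), the anchors of 47 gene lists and the 3 largest DE genes of each list. Members and lists were chosen with earlier results of these data known. The gene families, the motif spacing, the chromosome pattern and further genes named from the lists and families were chosen after values were seen. Motifs were searched on both strands of RefSeq promoter windows. Alternatives were DESeq2 1.42.0, limma 3.58.1 on log2(TPM + 1) of the deposited TPM, other filters, scalings and thresholds, a replicate block, thinning and leaving out libraries. The labels do not say whether samples were prepared separately, although the study states 3 mice per group, so p-values measure the spread between these samples. Some genes are not reported here.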

Additional observations from a re-analysis of the deposited data

How the results depend on the processing

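The number of DE genes (1358, 726 higher in CT2A and 632 in GL261) varied with the fit. It was 2163 (1168 and 995) with DESeq2, 2353 (1234 and 1119) in a fit of the 6 samples alone, 2300 (1183 and 1117) with libraries thinned to the lowest total, and 765 (351 and 414) with limma on log2(TPM + 1). Leaving out 1 library gave 599 to 2216 (265 to 1145 and 265 to 1071), the highest without 005 replicate 3. A log2 fold change of at least 2 left 805 (360 and 445), and at least 10 counts in every sample left 908 (541 and 367). Library size in place of TMM moved the median of all genes from −0.13 to −0.25 and gave 1208 DE genes, 46.4% of them higher in CT2A against 53.5%. With the replicate block the number was 1066 (564 and 502). The numbers do not pair the samples: the deviations of same-numbered CT2A and GL261 tumors correlated at −0.239, −0.107 and −0.017. None of the named genes that were DE reversed its direction under these alternatives. Named genes that were not DE could change sign, such as Col1a1, fitted between −0.87 and 0.61 over the fits without 1 library. The causes of these changes were not tested. Depth limits genes near 3 counts.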
